A study of Mus musculus with 8 samples.

Results

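The 54 DNA repair and checkpoint genes described here were taken by symbol from a table of 21899 mouse genes, each symbol matching 1 row, and they were sorted by known role into homologous recombination, the Fanconi anaemia pathway, mismatch repair, excision repair, end joining, and checkpoint and replication fork genes. Poly(A) RNA was sequenced from mesenchymal stem cells of mouse femur bone marrow, adherent stromal cells that can form bone, fat and cartilage. In the EA group, 4 libraries came from cells given 10 µM ellagic acid, a plant polyphenol, for 48 h, and in the Control group 4 libraries came from cells given the solvent DMSO for 48 h. The labels name no strain, sex, age or passage. Whether each library had its own animal or culture is not stated either, and p-values therefore cover only the scatter among these 8 libraries, part of which may be technical.

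Cells mend breaks in both DNA strands by homologous recombination, which copies the intact sister chromatid and runs mainly in S and G2 phase, or by end joining, which can act at any stage. The Fanconi anaemia proteins unhook crosslinks between the strands at stalled replication forks, mismatch repair corrects copying errors, and excision repair replaces damaged bases or short stretches of a strand. The kinases ATM and ATR sense breaks and stalled forks and hold the cell cycle through CHK2 and CHK1. Many genes of recombination, crosslink repair and fork protection are transcribed mostly in dividing cells, through E2F factors among others, whereas most excision repair genes are on at all stages.

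Most of the 54 genes were lower with EA. All 54 had enough reads to be tested, and 38 fell, 4 rose and 12 did not pass an adjusted p of 0.05 (quasi-likelihood test of edgeR, Benjamini-Hochberg over 11777 tested genes). Of all tested genes 67.2% were called, 34.2% as lower and 33.1% as higher, so a call in either direction was common in this comparison. The median log2 fold change of EA over Control was −0.60 for the 54 genes and −0.02 for all tested genes. A log2 fold change of −1 or less was called for 20 of the 54 genes, against 8.68% of tested genes. The values of the EA and Control libraries did not overlap for 39 of the 54 genes, against 60.6% of tested genes. In bulk RNA, fewer cells that express a gene and less RNA per cell cannot be told apart.

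The 54 genes together took 0.0587 to 0.0609% of all reads in the EA libraries and 0.105 to 0.116% in the Control libraries. After TMM scaling (trimmed mean of M values, a library factor that assumes most genes do not change) their summed CPM (reads of a gene per megaread of the scaled library) was 666 to 689 in EA and 925 to 1012 in Control. TMM factors were 0.878 to 0.885 in EA and 1.13 to 1.14 in Control, and scaling to library totals alone moved the median over tested genes by −0.36 on the log2 scale. On library totals 49 of the 54 genes were called lower and 3 higher, beside 7196 lower and 1940 higher of all tested genes, where TMM scaling gave 4027 lower and 3893 higher. The log2 fold changes below are on the TMM scale unless another is named.

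**Figure D1:**
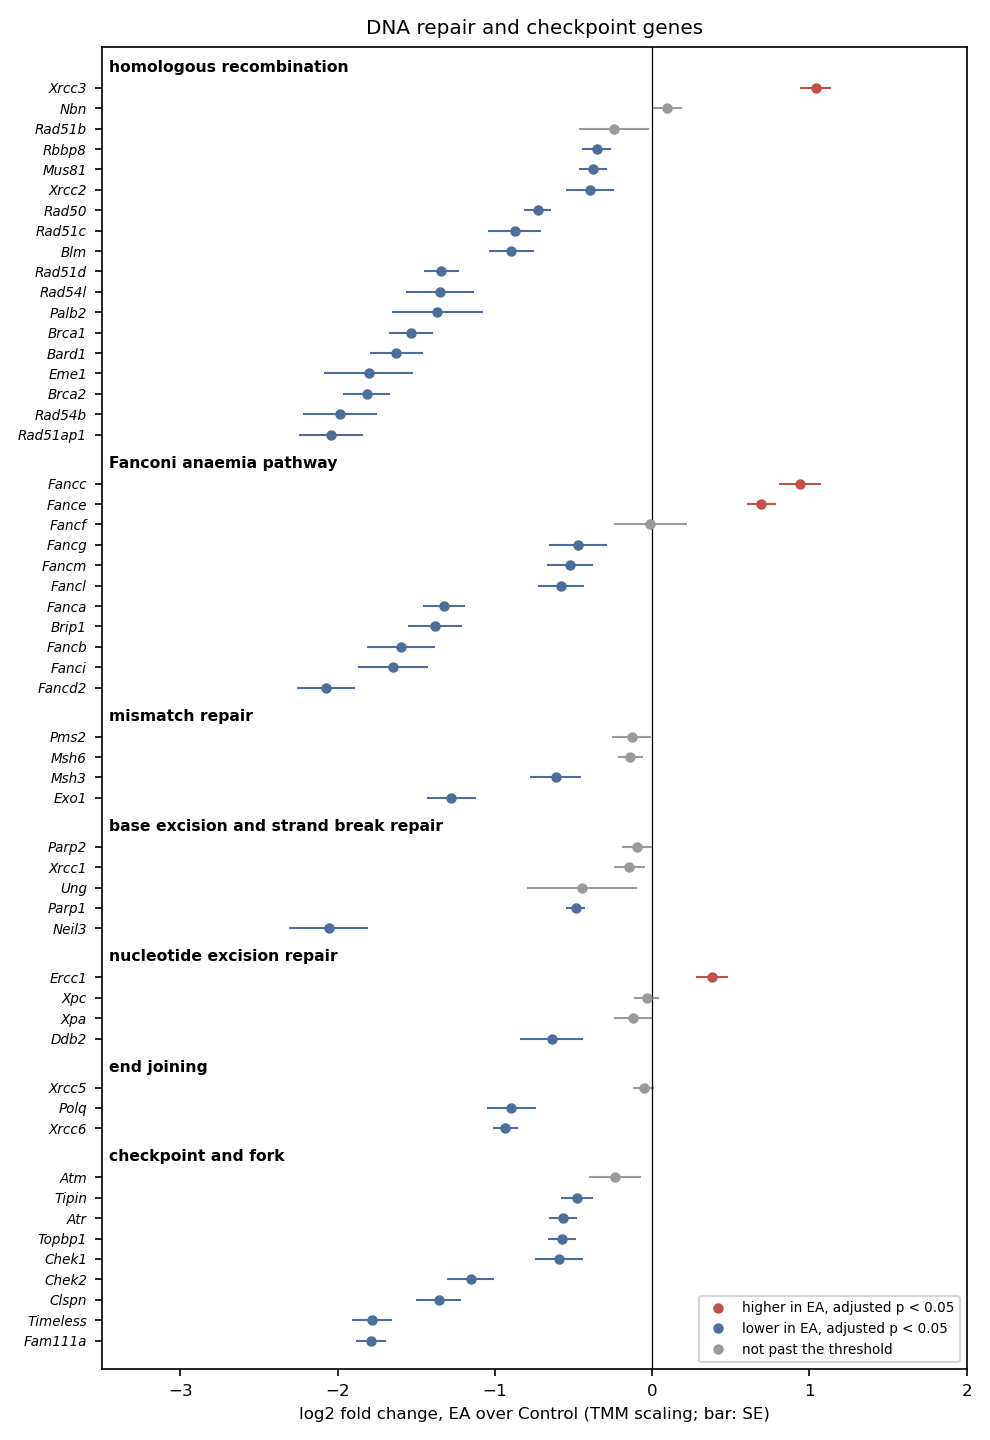
Log2 fold change of EA over Control for each of the 54 genes, in 7 groups by role, as points with the SE as bars. Red marks the 4 genes called higher, blue the 38 called lower and grey the 12 that did not pass. The values run from −2.07 for Fancd2 to 1.04 for Xrcc3, and the largest falls lie in homologous recombination, the Fanconi anaemia pathway, and among fork genes, with Neil3 beside them.

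Library depth was 14112519 to 17390200 reads over genes. The 54 genes held 178 to 8427 reads each over the 8 libraries, and 7 of them (Palb2, Rad54b, Eme1, Fancb, Fanci, Ung and Neil3) had under 100 reads in the 4 EA libraries together, which limits their precision. Of 12 stromal markers 11 were tested, 7 rose and 3 fell (Ly6a, Vcam1 and Prrx1), and they summed to 21140 to 22050 CPM in EA and 15090 to 17070 CPM in Control. Most of the sum came from Col1a2, at 10600 CPM in EA and 7872 CPM in Control, and Col1a1, at 7452 CPM in EA and 5607 CPM in Control. In FPKM (counts divided by gene length and library total, with no TMM factor), Col1a2 averaged 752 ± 12.3 in EA and 718 ± 43.4 in Control. Col1a1 averaged 1001 ± 30.2 FPKM in EA and 968 ± 80.2 FPKM in Control (SD, n = 4 each). Thy1 was near absent at 0.130 CPM in EA and 0.173 CPM in Control. Of the 10 haematopoietic markers listed, Cd34 alone was tested, and they summed to 225 to 242 CPM in EA and 191 to 216 CPM in Control, nearly all from Cd34. The leukocyte gene Ptprc averaged 0.300 CPM in EA and 0.228 CPM in Control, and Cd3e and Gata1 had 0 reads. The macrophage list summed to 59.6 to 63.7 CPM in EA and 59.6 to 74.7 CPM in Control, nearly all from Lyz2, which was 1.49-fold higher, and Cd14, which was 3.53-fold lower, with Adgre1 at 0.0362 CPM in EA and 0.0719 CPM in Control and C1qc at 0, and the endothelial list summed to 1.76 to 2.92 CPM in EA and 2.37 to 4.30 CPM in Control. The part of other cells in the results was not tested beyond these levels.

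Promoter sequences from RefSeq (build GRCm38.p6, 250 bases before to 50 after the start) were found by symbol for 43 of the 54 genes. An E2F motif, spelled as TTTCCCGC, TTTCGCGC, TTTGCCGC or TTTGGCGC on either strand, was in the promoter of 10 of these 43 genes (23.3%), against 4.8% of 9404 tested genes with a promoter and 2.6% of all 27025 genes with one. The matches to these spellings can overlap each other, as 2 of them do in Msh3. The 10 genes were Brca2, Bard1, Rad51c, Fancg, Msh3, Msh6, Xrcc6, Chek2, Topbp1 and Clspn. Of these, 9 were called lower with EA and Msh6 was not called, where 38 of all 54 genes were called lower. The share called lower among all tested genes with a match was not computed, so a link of the motif to the falls was not tested. By size of change, a match was found for 4 of 16 genes with a log2 fold change of −1 or less, 5 of 13 that fell by less, 1 of 10 not called and 0 of 4 called higher. In the window that starts 150 bases before the start, 6 of 43 promoters held a match (14%), against 3.48% of tested genes, with 1 of 16 genes at a log2 fold change of −1 or less and 4 of 13 that fell by less. The pentamer CCAAT was in 24 of the 43 promoters (55.8%), against 43.5% of tested and 41.1% of all genes, and TTTGAA, the core of the cell cycle element named CHR, in 4 (9.3%), against 14.4% of tested and 20.2% of all genes. The median GC content of these promoters was 58% for the 43 genes, 61% for tested genes and 52.8% for all genes. A match is a run of letters and was not tested as a binding site.

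The 4 promoters below are those of called genes with a log2 fold change of −1 or less that hold an E2F match, shown so that the letters can be read beside the values. They lie at chr5:150522371-150522670 on the plus strand for Brca2, chr1:71102923-71103222 on the minus strand for Bard1, chr4:126556730-126557029 on the plus strand for Clspn and chr5:110839733-110840032 on the plus strand for Chek2 (RefSeq, GRCm38.p6). Each is written from its upstream end in the direction of transcription, and capitals mark E2F matches and, in Bard1, also a TTTGAA match near its upstream end. Of the 4 matches, only that of Clspn lies wholly within the shorter window.
Brca2: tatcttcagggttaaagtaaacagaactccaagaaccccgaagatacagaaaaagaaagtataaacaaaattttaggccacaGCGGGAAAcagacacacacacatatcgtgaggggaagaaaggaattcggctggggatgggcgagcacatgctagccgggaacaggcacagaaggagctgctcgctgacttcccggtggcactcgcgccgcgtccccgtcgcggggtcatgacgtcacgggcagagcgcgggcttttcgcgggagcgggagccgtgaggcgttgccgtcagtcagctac
Bard1: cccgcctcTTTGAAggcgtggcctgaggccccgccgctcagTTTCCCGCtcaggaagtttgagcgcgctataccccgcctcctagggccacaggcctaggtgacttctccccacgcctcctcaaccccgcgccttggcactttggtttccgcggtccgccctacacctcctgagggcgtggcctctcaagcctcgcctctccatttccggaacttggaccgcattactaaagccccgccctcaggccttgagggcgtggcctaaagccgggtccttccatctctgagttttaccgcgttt
Clspn: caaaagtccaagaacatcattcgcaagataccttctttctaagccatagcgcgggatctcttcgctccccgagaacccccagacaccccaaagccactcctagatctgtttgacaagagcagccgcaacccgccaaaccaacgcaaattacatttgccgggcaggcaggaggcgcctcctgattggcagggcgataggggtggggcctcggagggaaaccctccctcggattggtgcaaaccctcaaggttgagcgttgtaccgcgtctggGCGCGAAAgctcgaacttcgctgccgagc
Chek2: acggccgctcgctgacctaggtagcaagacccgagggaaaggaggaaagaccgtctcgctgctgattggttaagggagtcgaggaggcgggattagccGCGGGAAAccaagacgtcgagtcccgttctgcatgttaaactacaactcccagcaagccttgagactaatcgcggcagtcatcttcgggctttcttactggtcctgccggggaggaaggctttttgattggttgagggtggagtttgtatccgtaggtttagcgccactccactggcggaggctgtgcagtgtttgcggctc

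Homologous recombination was the largest class. Of its 18 genes 15 fell, Xrcc3 rose and Rad51b and Nbn were not called, with a median log2 fold change of −1.12, and 9 were at −1 or less. Summed over the 18 genes the level was 165 to 185 CPM in EA and 243 to 263 CPM in Control. The tumour suppressor genes Brca1, Brca2, Bard1 and Palb2 were all lower. Brca2, which acts on the resected break to start strand exchange (chromosome 5, 150446095 to 150493794, build GRCm39 as for all gene positions below), had 4.90, 5.45, 4.36 and 3.06 CPM in EA libraries 1 to 4, against 14.5, 14.9, 18.0 and 15.0 CPM in Control libraries 1 to 4. Its highest EA value lay far below its lowest Control value, and the log2 fold change was −1.81 ± 0.15 (SE, adjusted p = 1.06e-09, edgeR). Brca1, which directs break ends to this pathway (chromosome 11, 101379590 to 101442781), had 4.26, 6.33, 6.57 and 5.84 CPM in EA libraries 1 to 4, against 15.3, 14.8, 19.6 and 17.3 CPM in Control libraries 1 to 4. The groups did not overlap, and Brca1 changed by −1.53 ± 0.14 (SE, adjusted p = 4.85e-09, edgeR). Its partner Bard1 was 3.09-fold lower and Palb2, which joins BRCA1 to BRCA2, 2.58-fold lower, although Palb2 had 53 reads in EA and 174 in Control in all.

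**Figure D2:**
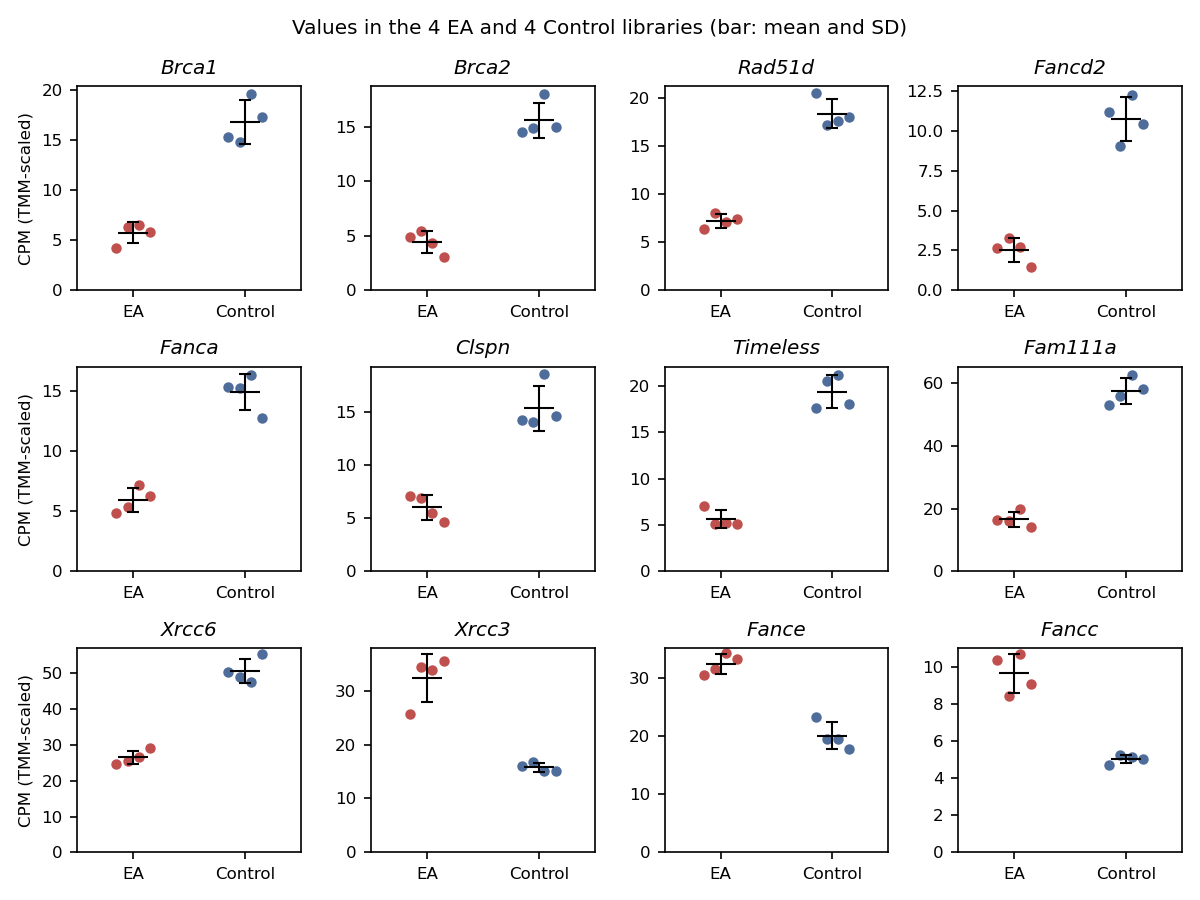
Scaled CPM of 12 of the genes in each library, with EA left of Control, points for the 4 libraries of a group and bars for the mean and SD. The points of the groups do not overlap in any panel: 9 genes sit lower in EA, such as Fam111a at 14.1 to 19.7 CPM against 52.8 to 62.6 CPM in Control, and Xrcc3, Fance and Fancc sit higher in EA.

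Rad51b, Rad51c, Rad51d, Xrcc2 and Xrcc3, whose proteins form complexes that assist strand exchange, did not move together. Rad51d (chromosome 11, 82767260 to 82781440) had 6.35, 8.10, 7.15 and 7.40 CPM in EA libraries 1 to 4, against 20.6, 17.2, 17.7 and 18.1 CPM in Control libraries 1 to 4. All EA values were under 9 CPM and all Control values over 17 CPM, a log2 fold change of −1.34 ± 0.11 (SE, adjusted p = 1.74e-09, edgeR). Rad51c was 1.83-fold lower. Xrcc2 was 1.32-fold lower at an adjusted p of 0.0289 (edgeR), but the call was lost without Control library 2 (log2 fold change −0.37), 3 (−0.38) or 4 (−0.38) or without EA library 1 (−0.35) or 4 (−0.32). Rad51b did not pass, with a log2 fold change of −0.24 and adjusted p = 0.339 (edgeR). Xrcc3 (chromosome 12, 111769626 to 111780307) was the exception in direction, with 25.6, 34.4, 33.8 and 35.4 CPM in EA libraries 1 to 4, against 15.9, 16.8, 15.2 and 15.1 CPM in Control libraries 1 to 4. EA library 1 was the lowest of its group, still above every Control library, and the log2 fold change was 1.04 ± 0.10 (SE, adjusted p = 1.39e-08, edgeR). Xrcc3 overlaps Klc1 on the opposite strand over 4653 bases. Klc1 averaged 209 CPM in EA and 126 CPM in Control, and without the strand of a read the counts of the pair cannot be told apart.

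Of the genes below that act in strand invasion, on joined molecules or on break ends, all but Nbn fell. Rad51ap1, which stimulates strand invasion, was 4.11-fold lower, and the translocase genes Rad54b and Rad54l were 3.96-fold and 2.54-fold lower. Blm, a helicase that dissolves joined DNA, was 1.86-fold lower. Eme1, a subunit of the nuclease that cuts joined molecules, was 3.49-fold lower, and Mus81, the other subunit, 1.30-fold lower. Among the genes of end trimming, Rad50 was 1.65-fold lower and Rbbp8, which encodes CtIP, 1.28-fold lower, while Nbn did not pass at a log2 fold change of 0.10 (adjusted p = 0.369, edgeR) and had 18.7 to 22.2 CPM in EA and 17.5 to 20.6 CPM in Control. On library totals Nbn was instead called lower, at −0.27. Rad54l, Eme1 and Mus81 each overlap a gene on the opposite strand, and Rad54b shares 7927 bases on its own strand with Fsbp, which averaged 0.127 CPM in EA and 0.640 CPM in Control.

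In the Fanconi anaemia pathway 8 of 11 genes fell, Fancc and Fance rose and Fancf was not called, with a median log2 fold change of −0.58. The group held the largest fall of the 54 genes, Fancd2 (chromosome 6, 113508643 to 113573978), whose protein is ubiquitinated to start crosslink repair. Fancd2 had 2.65, 3.31, 2.73 and 1.49 CPM in EA libraries 1 to 4, against 11.2, 9.02, 12.3 and 10.4 CPM in Control libraries 1 to 4. Every EA value was under 4 CPM and every Control value over 9 CPM, a log2 fold change of −2.07 ± 0.18 (SE, adjusted p = 3.65e-09, edgeR). Its partner in the clamp on DNA, Fanci, was 3.13-fold lower. Brip1, a helicase that binds BRCA1, had 2.17, 2.94, 3.12 and 2.13 CPM in EA libraries 1 to 4, against 6.77, 6.80, 7.18 and 6.45 CPM in Control libraries 1 to 4. That was a separation without overlap, at −1.38 ± 0.17 (SE, adjusted p = 4.93e-07, edgeR).

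Genes of the core complex, the ubiquitin ligase that marks FANCD2, divided. Fanca had 4.90, 5.37, 7.22 and 6.26 CPM in EA libraries 1 to 4, against 15.4, 15.3, 16.3 and 12.8 CPM in Control libraries 1 to 4. The groups did not overlap and Fanca changed by −1.32 ± 0.13 (SE, adjusted p = 2.78e-08, edgeR). Fancb was 3.02-fold lower, Fancl, the ligase subunit, 1.49-fold lower, and Fancm, the translocase that finds the crosslink, 1.43-fold lower with overlapping groups. Fancg was 1.39-fold lower at an adjusted p of 0.0276 (edgeR), with overlapping groups, and did not pass without Control library 1 (−0.34) or 3 (−0.38), without EA library 1 (−0.45) or 4 (−0.42), or with limma voom (−0.43). Fancf had a log2 fold change of −0.01 at adjusted p = 0.966 (edgeR), from 2.40 ± 0.233 CPM in EA and 2.43 ± 0.563 CPM in Control (SD, n = 4 each). Fance (chromosome 17, 28532493 to 28545546) went the other way, with 30.5, 31.5, 34.3 and 33.2 CPM in EA libraries 1 to 4, against 23.3, 19.5, 19.6 and 17.8 CPM in Control libraries 1 to 4. All EA libraries were above all Control libraries, at 0.69 ± 0.09 (SE, adjusted p = 1.02e-06, edgeR). Fancc (chromosome 13, 63432857 to 63645092) was also higher, with 10.4, 8.46, 10.7 and 9.11 CPM in EA libraries 1 to 4, against 4.70, 5.23, 5.14 and 5.07 CPM in Control libraries 1 to 4. This was again without overlap, at 0.94 ± 0.13 (SE, adjusted p = 3.26e-06, edgeR). The span of Fancc is shared over 41054 bases with Aopep on the opposite strand, which averaged 81.3 CPM in EA and 49.8 CPM in Control, whereas Fance overlaps no other gene of the table. On library totals Xrcc3, Fancc and Fance were still called higher, at log2 fold changes of 0.68, 0.58 and 0.33.

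Checkpoint and fork genes fell in 8 of 9 cases, with a median log2 fold change of −0.59, and their summed level was 114 to 131 CPM in EA and 214 to 255 CPM in Control. Fam111a, which encodes a protease that in human cells removes proteins stuck to DNA in front of forks (chromosome 19, 12523104 to 12567132), had the smallest p of the 54 genes. Its values were 16.3, 16.1, 19.7 and 14.1 CPM in EA libraries 1 to 4, against 52.8, 55.9, 62.6 and 57.8 CPM in Control libraries 1 to 4. Every EA value was under 20 CPM and every Control value over 52 CPM, and the log2 fold change was −1.79 ± 0.09 (SE, adjusted p = 6.15e-13, edgeR). Timeless, a fork protection factor (chromosome 10, 128067934 to 128088810), had 7.07, 5.15, 5.20 and 5.12 CPM in EA libraries 1 to 4, against 17.6, 20.5, 21.2 and 18.0 CPM in Control libraries 1 to 4. EA library 1 stood above the other EA libraries and still far below Control, at −1.78 ± 0.13 (SE, adjusted p = 1.07e-10, edgeR). Tipin, which binds TIMELESS, was 1.39-fold lower.

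Kinase genes and their activators fell by different amounts. Clspn, whose protein links ATR to CHK1 (chromosome 4, 126450728 to 126487696), had 7.08, 6.92, 5.46 and 4.63 CPM in EA libraries 1 to 4, against 14.2, 14.1, 18.5 and 14.6 CPM in Control libraries 1 to 4. The groups did not overlap, at −1.36 ± 0.14 (SE, adjusted p = 5.04e-08, edgeR). Chek2, the kinase gene downstream of ATM, had 4.50, 4.78, 4.62 and 6.76 CPM in EA libraries 1 to 4, against 11.0, 9.81, 13.4 and 11.8 CPM in Control libraries 1 to 4. EA library 4 was the highest EA value and lay under every Control value, at −1.15 ± 0.15 (SE, adjusted p = 1.04e-06, edgeR). Chek1, the kinase gene downstream of ATR, was 1.51-fold lower. Atr itself was 1.48-fold lower and Topbp1, which activates ATR, 1.49-fold lower. Atm did not pass, with a log2 fold change of −0.24 (adjusted p = 0.216, edgeR), and its libraries overlapped at 16.4 to 24.4 CPM in EA and 18.3 to 29.9 CPM in Control.

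Of the 4 mismatch repair genes Exo1 and Msh3 fell, and Msh6 and Pms2 did not pass. Exo1, a nuclease that also lengthens trimmed break ends, had 3.06, 3.31, 2.54 and 3.13 CPM in EA libraries 1 to 4, against 6.77, 7.46, 7.06 and 7.84 CPM in Control libraries 1 to 4. All EA values were below all Control values, at −1.28 ± 0.16 (SE, adjusted p = 4.11e-07, edgeR). Msh3, which binds loops, had 4.42, 5.15, 4.81 and 3.42 CPM in EA libraries 1 to 4, against 7.69, 7.16, 5.82 and 6.61 CPM in Control libraries 1 to 4. The gap between groups was narrower, at −0.61 ± 0.16 (SE, adjusted p = 0.00216, edgeR). Msh6, which binds single mismatches, had a log2 fold change of −0.14 (adjusted p = 0.138, edgeR), and Pms2, an endonuclease subunit, −0.13 (adjusted p = 0.369, edgeR).

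In end joining, Xrcc6 and Polq fell and Xrcc5 did not pass. Xrcc6, which encodes the Ku70 subunit that grips broken ends (chromosome 15, 81872036 to 81924286), had 24.7, 25.5, 26.6 and 29.0 CPM in EA libraries 1 to 4, against 50.3, 48.8, 47.6 and 55.4 CPM in Control libraries 1 to 4. The highest EA value lay well below the lowest Control value, at −0.93 ± 0.08 (SE, adjusted p = 1.29e-09, edgeR). Xrcc5, which encodes the Ku80 subunit, had a log2 fold change of −0.05 (adjusted p = 0.506, edgeR), and was the most abundant of the 54 genes per transcript length, at 14.6 ± 0.714 FPKM in EA and 19.5 ± 0.743 FPKM in Control (SD, n = 4 each). FPKM, a count divided by gene length and by library total, carries no TMM factor and was computed by the authors. Polq, the polymerase gene of the end joining route that uses short homologies, had 4.66, 6.18, 5.59 and 3.77 CPM in EA libraries 1 to 4, against 9.12, 8.24, 11.0 and 9.28 CPM in Control libraries 1 to 4. It changed by −0.90 ± 0.16 (SE, adjusted p = 4.05e-05, edgeR). Xrcc6 shares 41340 bases of its span with Desi1 on the opposite strand, which averaged 29.97 CPM in EA and 46.4 CPM in Control.

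Among 5 genes of base excision and strand break repair Neil3 and Parp1 fell, and Xrcc1, Parp2 and Ung did not pass. Neil3, a glycosylase gene, had 1.13, 1.32, 1.04 and 1.49 CPM in EA libraries 1 to 4, against 4.88, 3.85, 7.57 and 4.48 CPM in Control libraries 1 to 4. Control library 3 was high within its group, and all EA values lay under all Control values, at −2.06 ± 0.25 (SE, adjusted p = 4.24e-07, edgeR). Parp1, which senses strand breaks, had 51.1, 55.6, 56.3 and 55.5 CPM in EA libraries 1 to 4, against 75.6, 80.1, 75.7 and 74.7 CPM in Control libraries 1 to 4. The groups were tight and apart, at −0.49 ± 0.06 (SE, adjusted p = 7.35e-07, edgeR). The log2 fold changes of Xrcc1, a scaffold of strand break repair, Parp2 and the uracil glycosylase gene Ung were −0.15, −0.09 and −0.45 (adjusted p = 0.201, 0.403 and 0.267, edgeR).

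Of 4 nucleotide excision repair genes Ercc1 rose, Ddb2 fell, and Xpa and Xpc did not pass. Ercc1, a subunit of the nuclease that cuts beside the damage (chromosome 7, 19078703 to 19090449), had 19.9, 21.5, 23.1 and 23.6 CPM in EA libraries 1 to 4, against 19.5, 15.9, 17.7 and 14.6 CPM in Control libraries 1 to 4. The lowest EA value was just above the highest Control value, at 0.38 ± 0.10 (SE, adjusted p = 0.00262, edgeR). Ercc1 was not past the threshold on library totals (log2 fold change 0.02), with upper-quartile factors (0.22) or on FPKM (0.02), and it overlaps Cd3eap on the opposite strand over 511 bases, a gene at 37.4 CPM in EA and 13.2 CPM in Control. Ddb2, which recognises ultraviolet damage, had 2.49, 3.24, 2.47 and 3.91 CPM in EA libraries 1 to 4, against 3.84, 4.21, 5.37 and 5.44 CPM in Control libraries 1 to 4. The groups overlapped, with EA library 4 just above Control library 1, at −0.64 ± 0.20 (SE, adjusted p = 0.008, edgeR). Xpc, which senses distorted DNA, and Xpa, which verifies it, had log2 fold changes of −0.03 and −0.12 (adjusted p = 0.729 and 0.408, edgeR).

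The 12 genes that did not pass were more abundant per length than those that fell most. Their median was 3.08 FPKM in EA and 4.30 FPKM in Control, while the 20 genes called at a log2 fold change of −1 or less had a median of 0.393 FPKM in EA and 1.67 FPKM in Control. Fam111a was the most abundant of these 20, at 3.54 ± 0.508 FPKM in EA and 15.7 ± 1.20 FPKM in Control (SD, n = 4 each). Of the 12, all but Fancf were called lower on library totals.

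Proteins of several of these genes work as pairs, and the ratio of 2 genes' reads within a library does not depend on how libraries are scaled. The log2 ratio was compared for 15 pairs, chosen with the values of the single genes known, by exact two-sided permutation over 70 assignments of the libraries (smallest possible p = 0.0286), with Benjamini-Hochberg adjustment over the pairs. In 11 pairs the ratio differed at that smallest p (adjusted p = 0.039, exact permutation). With 60.6% of single tested genes free of overlap between the groups, and no share computed over other pairs, the count is a description of these pairs and shows nothing particular to partners. The adjusted p also depends on how many of the chosen pairs reached the smallest p, so it too only describes this choice. The ratio of Xrcc6 to Xrcc5 was −0.677 ± 0.134 in EA and 0.203 ± 0.128 in Control on the log2 scale (SD, n = 4 each), 1.84-fold lower in EA. The ratio of Rad50 to Nbn was 1.76-fold lower, that of Timeless to Tipin 2.46-fold lower, that of Eme1 to Mus81 2.62-fold lower, and that of Rad51d to Xrcc2 1.91-fold lower. The ratio of Parp1 to Parp2 was 1.32-fold lower and that of Fancd2 to Fanci 1.40-fold lower, and the ratio of Chek1 to Chek2 was 1.47-fold higher.

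The 3 pairs with a gene that rose also differed. The ratio of Ddb2 to Ddb1 was −9.81 ± 0.363 in EA and −7.70 ± 0.280 in Control on the log2 scale (SD, n = 4 each), 4.32-fold lower, that of Rad51c to Xrcc3 was 3.72-fold lower, and that of Ercc1 to Ercc4 was 1.74-fold higher. Xrcc3, Ercc1, Xrcc6, Fancd2, Fanci, Eme1, Mus81, Ddb2 and Ddb1 overlap opposite-strand genes, among them Polg for Fanci (log2 fold change 0.84), Tkfc for Ddb1 (2.09) and Lrrc59 for Eme1 (0.74), and the part of those reads in the ratios was not tested. In the other 4 pairs the difference of log2 ratios, EA minus Control, was 0.07 for Brca1 to Bard1, −0.45 for Brca2 to Palb2, −0.48 for Msh3 to Msh6 and −0.34 for Atr to Atm (adjusted p = 0.83, 0.367, 0.107 and 0.165, exact permutation), which does not show that these pairs moved alike.

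**Figure D3:**
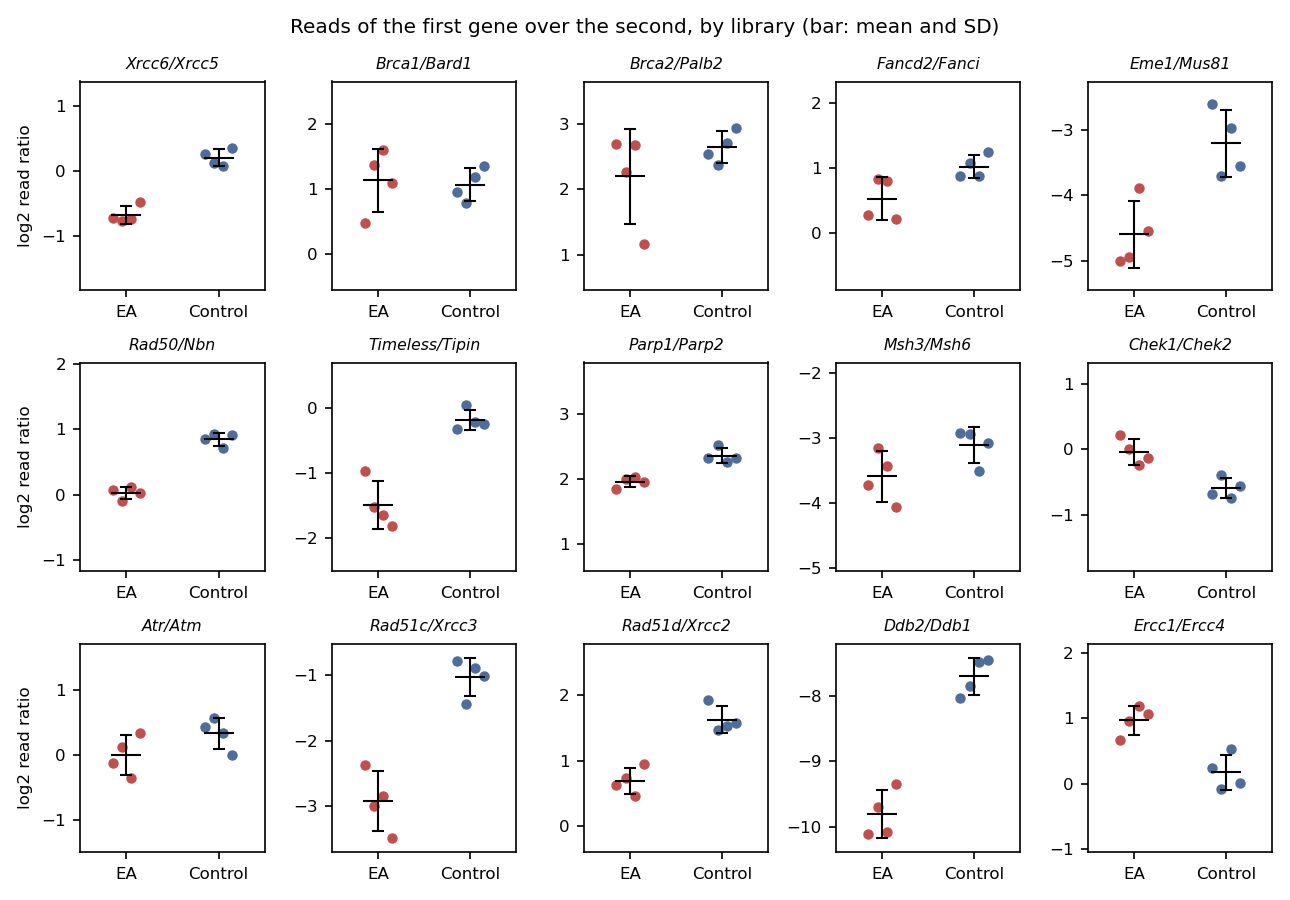
Log2 ratio of the reads of a first gene over a second in each library for 15 pairs, with EA left of Control, points for libraries, bars for the mean and SD, and 0.5 reads added to each count. The axes span at least 3.2 log2 units, and the groups separate in 11 panels, as for Xrcc6 over Xrcc5, and overlap for Brca1 over Bard1, Brca2 over Palb2, Msh3 over Msh6 and Atr over Atm.

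A further 110 genes of the same pathways, listed by role, were examined for comparison. Of 108 tested, 64 fell and 14 rose, with a median log2 fold change of −0.38, and 13 had one of −1 or less. Among all tested genes 34.2% were called lower, 33.1% higher and 8.68% at a log2 fold change of −1 or less. The count of large falls in this list is thus not far from that of all tested genes. Among 20 other recombination genes 12 fell and none rose. The resolvase gene Gen1 averaged 1.33 ± 0.537 CPM in EA and 6.95 ± 0.198 CPM in Control (SD, n = 4 each), a log2 fold change of −2.38 (adjusted p = 6.34e-09, edgeR). Of 10 other Fanconi pathway genes 7 fell and none rose, among them the deubiquitinase gene Usp1 at 1.77-fold lower and its activator Wdr48 at 1.40-fold lower. Of 4 other mismatch repair genes 3 fell.

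The other groups were more mixed. Among all tested genes 34.2% were called lower and 33.1% higher, and the counts below are to be read beside these shares. Of 20 tested base excision and strand break genes 12 fell, among them Aplf at 2.14-fold lower, and Apex2 and Parp3 rose by 0.35 and 0.19 on the log2 scale. Without TMM factors neither was higher, since Apex2 averaged 2.63 FPKM in EA and 2.64 FPKM in Control, and Parp3 33.7 FPKM in EA and 38.0 FPKM in Control. Of 17 nucleotide excision repair genes 8 fell and 4 rose. Ddb1, the adaptor of the ubiquitin ligase that holds DDB2, averaged 2703 ± 97.5 CPM in EA and 975 ± 22.6 CPM in Control (SD, n = 4 each), a log2 fold change of 1.47 ± 0.05 (SE, adjusted p = 8.15e-16, edgeR), and Ercc6 was 1.52-fold higher. In FPKM Ercc6 averaged 4.02 ± 0.289 in EA and 3.39 ± 0.323 in Control (SD, n = 4 each), so most of its rise rests on the TMM factors. Gtf2h1 and Gtf2h2, subunits of the TFIIH complex, were 1.66-fold and 1.71-fold lower. Of 8 end joining genes 3 fell, among them Lig4 and Poll at 1.85-fold and 1.41-fold lower, and Polm and Xrcc4 were 1.88-fold and 1.42-fold higher. The end joining counts lie near the shares over all tested genes and show nothing particular to this class. Most of the rise of Xrcc4 rests on the TMM factors, since it averaged 1.02 ± 0.0292 FPKM in EA and 0.917 ± 0.0831 FPKM in Control (SD, n = 4 each). Polm averaged 8.83 FPKM in EA and 6.05 FPKM in Control.

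Among 19 other checkpoint and fork genes 13 fell and 3 rose. Wee1, the kinase that holds CDK1 inactive before mitosis, averaged 160 ± 6.59 CPM in EA and 27.1 ± 1.36 CPM in Control (SD, n = 4 each), a log2 fold change of 2.56 ± 0.06 (SE, adjusted p = 6.02e-18, edgeR), and Cdc25a, a phosphatase that removes the inhibitory mark, was 1.84-fold higher. Rad9a, a subunit of the checkpoint clamp, and the kinase gene Tlk2 were 2.27-fold and 1.68-fold lower. Of the genes named from these lists, Wdr48, Apex2, Parp3, Ddb1, Xrcc4 and Rad9a overlap a gene on the opposite strand, and for Apex2, Ddb1 and Xrcc4 such a gene also had a positive log2 fold change (Alas2 at 0.45, Tkfc at 2.09 and Tmem167 at 0.52). Alas2 was low, at 1.22 CPM in EA and 0.89 CPM in Control, and Apex2 also overlaps Pfkfb1, at a log2 fold change of −0.57. Mad2l2, named below among translesion genes, overlaps Draxin, which averaged 0.584 CPM in EA and 0.473 CPM in Control.

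**Figure D4:**
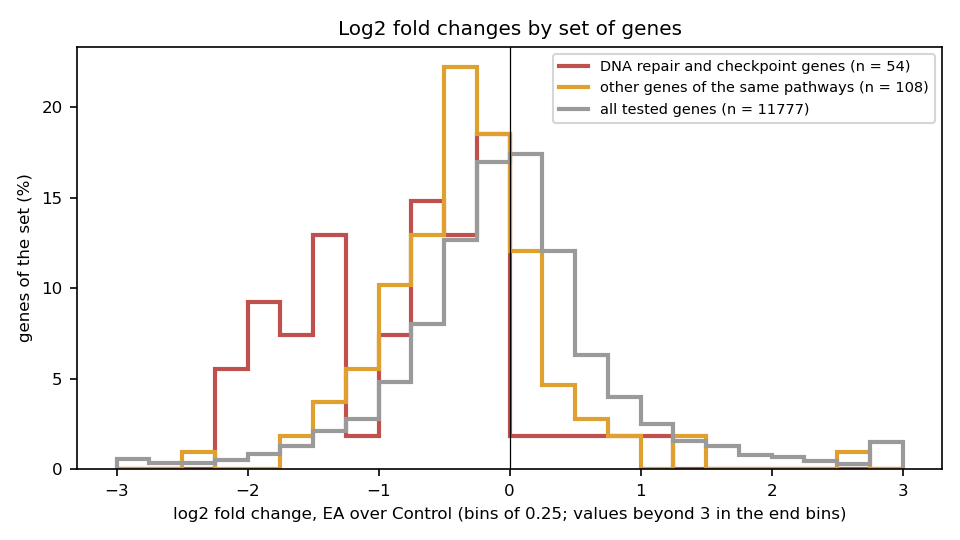
Share of genes in bins of 0.25 of the log2 fold change of EA over Control, for the 54 DNA repair and checkpoint genes, 108 other tested genes of the same pathways and all 11777 tested genes. The 54 genes have a median of −0.60 and 20 of them lie at −1 or less, the other pathway genes a median of −0.38, and all tested genes a median of −0.02.

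Markers of cell division moved in the same direction. Of 24 genes of S phase, G2 and mitosis 21 fell and 3 rose (Ccne2, Mcm6 and Pcna), with a median log2 fold change of −1.02 and summed levels of 543 to 596 CPM in EA and 993 to 1155 CPM in Control. In FPKM, which carries no TMM factor, Mcm6 averaged 9.50 ± 0.273 in EA and 9.99 ± 0.645 in Control and Pcna 44.5 ± 1.23 in EA and 44.2 ± 2.18 in Control (SD, n = 4 each), so that the rises of both rest on the TMM factors. The E2F family genes of that list, E2f1, E2f2, E2f7 and E2f8 were 1.67-fold, 7.23-fold, 1.83-fold and 3.21-fold lower. Among 14 targets of p53, 8 rose and 4 fell around a median log2 fold change of 0.39, and Cdkn1a, which halts the cell cycle and was chosen after its value was seen, averaged 285 ± 16.5 CPM in EA and 140.0 ± 16.0 CPM in Control (SD, n = 4 each). The part of the share of dividing cells in the falls of repair genes was not tested.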

How the data were processed

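The deposited table gives, per gene and library, the authors' read counts, made with cutadapt 1.15, HISAT2 2.0.5 and build GRCm39 per the submitters' processing notes, and FPKM values that the authors derived from count, gene length and library total. The counting tool, strand setting and annotation were not given in the sources used here, and the labels' protocol names no strand-marking step. Recomputed FPKM deviated by at most 5.1e-15 in relative terms. The 54 genes, the lists of other pathway genes, cell cycle and cell type markers, and the partner pairs were chosen with earlier results of these data known.

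The deposited counts were tested with edgeR 4.0.16 under R 4.3.3 (TMM factors, default count filter by group, robust quasi-likelihood test of EA against Control with no covariate, biological coefficient of variation 7.78%). Genes were called at a Benjamini-Hochberg adjusted p under 0.05. The SE is the log2 fold change divided by the square root of F. CPM values use TMM scaling. Values in every library are given for the members with the smallest p of each class (up to 4 in the 3 larger classes, up to 2 in the others) and for called members that went against most of their class. Of other pathway genes, up to 2 per direction and list were named by p, with a mean of at least 1 CPM, and some of these are not reported here. Gene spans were compared with each other for overlap, and 16 of the 54 genes overlap another gene of the table on the opposite strand and 2 on the same strand.

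The fits were first tested on simulated counts in which 200 genes were changed in random directions. The edgeR fit recovered 96.1% of the 1.5-fold changes and 100% of the 2-fold and 4-fold changes. With 67.2% of tested genes called in the real data, this simulation does not test the scaling between the groups. Results were recomputed with RLE factors, upper-quartile factors and library totals, other count filters, DESeq2 1.42.0, limma 3.58.1 voom and limma on log2(FPKM + 1) or log2(FPKM + 0.1), an adjusted p under 0.01, the replicate number as a block, and each library left out in turn. The alternatives for partner ratios were chosen after seeing the data. Figures were drawn with matplotlib 3.10.9.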

Additional observations from a re-analysis of the deposited data

Results flagged for a closer look

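Among 108 groups of 4 libraries (54 genes in EA and in Control), 9 held a library whose gap to its nearest neighbour exceeded the 95% critical value of Dixon for 4 values, a limit that chance passes in about 1 of 20 groups. In EA library 1, Timeless was at 7.07 CPM, beside 5.12 to 5.20 CPM in the other 3 (gap over range 0.953), Xrcc3 at 25.6 CPM, beside 33.8 to 35.4 CPM in the other 3 (gap over range 0.849), Parp1 at 51.1 CPM, beside 55.5 to 56.3 CPM in the other 3 (gap over range 0.853) and Xpc at 42.4 CPM, beside 35.3 to 36.2 CPM in the other 3 (gap over range 0.853). In EA library 4, Chek2 was at 6.76 CPM, beside 4.50 to 4.78 CPM in the other 3 (gap over range 0.851). In Control library 3, Brca2 was at 18.0 CPM, beside 14.5 to 15.0 CPM in the other 3 (gap over range 0.851) and Clspn at 18.5 CPM, beside 14.1 to 14.6 CPM in the other 3 (gap over range 0.866). In Control library 1, Xrcc2 was at 5.39 CPM, beside 6.08 to 6.20 CPM in the other 3 (gap over range 0.861), and in Control library 4, Fancf was at 1.60 CPM, beside 2.58 to 2.83 CPM in the other 3 (gap over range 0.838). For Timeless, Xrcc3, Parp1, Chek2, Brca2 and Clspn the call and its direction were kept without the library that stood apart.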

How the results depend on the processing

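Of the 54 genes 40 kept their side of the threshold under every alternative that gave a value. Among these 40 Fancf, which did not pass, changed sign in some, such as 0.03 with limma voom. The median log2 fold change of the 54 genes was −0.76 with upper-quartile factors, −0.97 on library totals, −0.91 on log2(FPKM + 0.1), −0.57 on log2(FPKM + 1), and −0.70 to −0.58 when each library was left out, with the lowest value without EA library 4. Counts of the 54 genes called stayed within 1.5 times, at 36 to 38 lower and 4 higher when each library was left out. Over all tested genes, library totals gave 1940 higher and 7196 lower, limma on log2(FPKM + 1) 1924 and 7170, and limma on log2(FPKM + 0.1) 1922 and 7179, and leaving out each library gave 3721 to 4012 higher and 3794 to 3957 lower. The other pathway genes called higher were 8 with upper-quartile factors and 7 on library totals, on log2(FPKM + 1) and on log2(FPKM + 0.1), and 12 to 15 higher and 60 to 65 lower when each library was left out. Nbn reversed to −0.27 on library totals, −0.23 on log2(FPKM + 1) and −0.26 on log2(FPKM + 0.1). The median over all tested genes moved by −0.16 with upper-quartile factors, −0.36 on library totals, −0.26 on log2(FPKM + 1) and −0.35 on log2(FPKM + 0.1), and the offsets added to FPKM also shrink the changes of low genes, as for Brca2 at −0.83 on log2(FPKM + 1). Promoters with an E2F match were 6 in the window from 150 bases before the start, which is shorter. With the replicate block 38 genes were called lower and 4 higher, and the block changed no call among the 54. Same-numbered libraries did not deviate together, with correlations of −0.0215 to 0.0266 and no library closest to its own number. With 4 libraries per group this cannot decide whether the numbers pair the libraries, and the labels do not say. The 11 partner ratios that differed kept their direction when each library was left out, and all 15 kept their call with 0.1 reads added. The difference for Brca1 to Bard1, which did not pass, changed sign without Control library 2 (−0.03), EA library 2 (−0.01) or EA library 3 (−0.09). Genes with few reads, such as Ung and Palb2, allow only large changes to be seen.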

Other observations

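Genes of translesion synthesis, in which special polymerases copy past damaged bases, moved in both directions. Of 10 tested genes 6 fell and 3 rose, beside 34.2% called lower and 33.1% called higher of all tested genes. Mad2l2, a subunit of polymerase zeta, averaged 20.6 ± 1.84 CPM in EA and 7.80 ± 0.873 CPM in Control (SD, n = 4 each), a log2 fold change of 1.40 ± 0.11 (SE, adjusted p = 8.08e-10, edgeR), and the catalytic subunit gene Rev3l was 1.34-fold higher. In FPKM, which carries no TMM factor, Rev3l averaged 7.66 ± 0.415 in EA and 7.34 ± 0.346 in Control (SD, n = 4 each). Mad2l2 averaged 6.91 ± 0.633 FPKM in EA and 3.37 ± 0.388 FPKM in Control. Most of the rise of Rev3l thus rests on the TMM factors. Poli, which encodes polymerase iota, was 2.53-fold lower and Rad18, the ligase that calls these polymerases to stalled forks, 1.62-fold lower.

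Of the 4 repair genes called higher, Xrcc3, Fancc and Ercc1 each overlap an opposite-strand gene that was also higher (Klc1, Aopep and Cd3eap), and Fance overlaps none. Fanci, which was called lower, overlaps Polg on the opposite strand over 4034 bases, and Polg was higher at 0.84. The part of opposite-strand reads in these values was not tested.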
